A study of Mus musculus with 31 samples.

Results

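Hypoxia-ischemia (HI) and magnesium sulphate (MgSO4) were set against each other in the forebrain of newborn mice, 3 h after each. The comparison used 7 of the 31 arrays of the series, chosen by their titles: the 3 arrays of HI at 3 h and the 4 arrays of MgSO4 at 3 h. All 7 carried RNA of control mice in Cy3 and RNA of HI or MgSO4 mice in Cy5, so that a dye effect that a probe shows on every array is in both sets of ratios and drops out of their difference. Such an effect stays in each ratio against control and in each bound drawn from it. Each channel held a pool of RNA from 6 ipsilateral hemispheres, without the olfactory bulb, from NMRI mice of postnatal day 5, with 3 males and 3 females according to the labels. HI mice had the right carotid artery ligated under isoflurane and were then kept in low oxygen, and their 3 h were counted from the end of hypoxia. MgSO4 mice were not injured and received 600 mg/kg. The labels give a subcutaneous injection and controls given PBS, whereas the methods give an intraperitoneal injection and controls without intervention, so that no sham-operated mice entered the comparison and ligature, anesthesia and hypoxia cannot be told apart. On the HI arrays the treatment label of the Cy5 pools also names MgSO4. Their titles and source name HI against naive mice, and the titles also carry PBS, as the study's text does for an injection before HI. The HI pools were treated here as not having received MgSO4, and whether they received PBS is not settled by these sources. The controls of both experiments came from their own litters. The arrays of each group lay on 2 slides that held none of the other group, so that slide or scan day and group cannot be told apart.

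Neurons and glia answer a strong stimulus within minutes with immediate early genes, which need no new protein to be transcribed. Many of them code for transcription factors of the Fos, Jun, Egr and Nr4a families, and others for phosphatases and RNA-binding proteins that end the signal. Injury of the newborn brain also induces chemokines, secreted proteins that attract leukocytes, and genes that hypoxia-inducible factors switch on when oxygen falls. Magnesium ions block the NMDA type of glutamate receptor, and MgSO4 is given to mothers at risk of preterm birth to protect the brain of the child.

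Before the results, the arrays themselves were compared over the 19478 probes tested. The HI arrays correlated with each other at r = 0.55 to 0.60. Among MgSO4 replicates 2, 3 and 4 the correlations were 0.22 to 0.36, whereas MgSO4 replicate 1 stood apart, at -0.09 to -0.08 with the other MgSO4 arrays. On MgSO4 replicate 3, 14% of the tested probes were well above background in neither channel, against 0.791% to 4.53% on the other 6 arrays. The authors' table sets 3.86% of the tested probes to 0 on this array, and the ratio most often found among them in the processed signals was 0.29. The median SD between arrays was 0.13 for HI and 0.21 for MgSO4 on the log2 scale. All values below are log2 ratios of Cy5 to Cy3, and the difference is the mean of the HI arrays minus the mean of the MgSO4 arrays. Where a gene is said to rise or fall by a value, the value is this difference and not the ratio to control.

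Of 14952 genes, each represented by its brightest probe, 99 (0.662%) differed between HI and MgSO4 at a limma adjusted p under 0.05 and a fold of 1.5 or more. In 87 (0.582%) the ratio was higher after HI and in 12 (0.0803%) it was lower. Among the 87 genes the median HI ratio was 1.14 and the median MgSO4 ratio -0.08, and the HI mean was above 0 in all 87. In the 12 lower genes the medians were -0.87 and 0.16, and the HI mean was below 0 in all 12. The HI and MgSO4 arrays did not overlap in any of the 99 genes, nor in 2741 (18.3%) of all genes tested, 1285 of them higher (8.59%) and 1456 lower (9.74%) after HI. Of the 99 genes, 23 kept the call when each of the 7 arrays was left out in turn, all of them higher after HI, and 20 lost it in every such fit. Over probes, 123 were called (0.631%), 107 higher (0.549%) and 16 lower (0.0821%). Without HI replicates 1, 2 and 3 there were 29, 34 and 29 higher and 0, 5 and 2 lower, and without MgSO4 replicates 1, 2, 3 and 4 there were 98, 40, 41 and 33 higher and 30, 4, 4 and 3 lower.

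**Figure D1:**
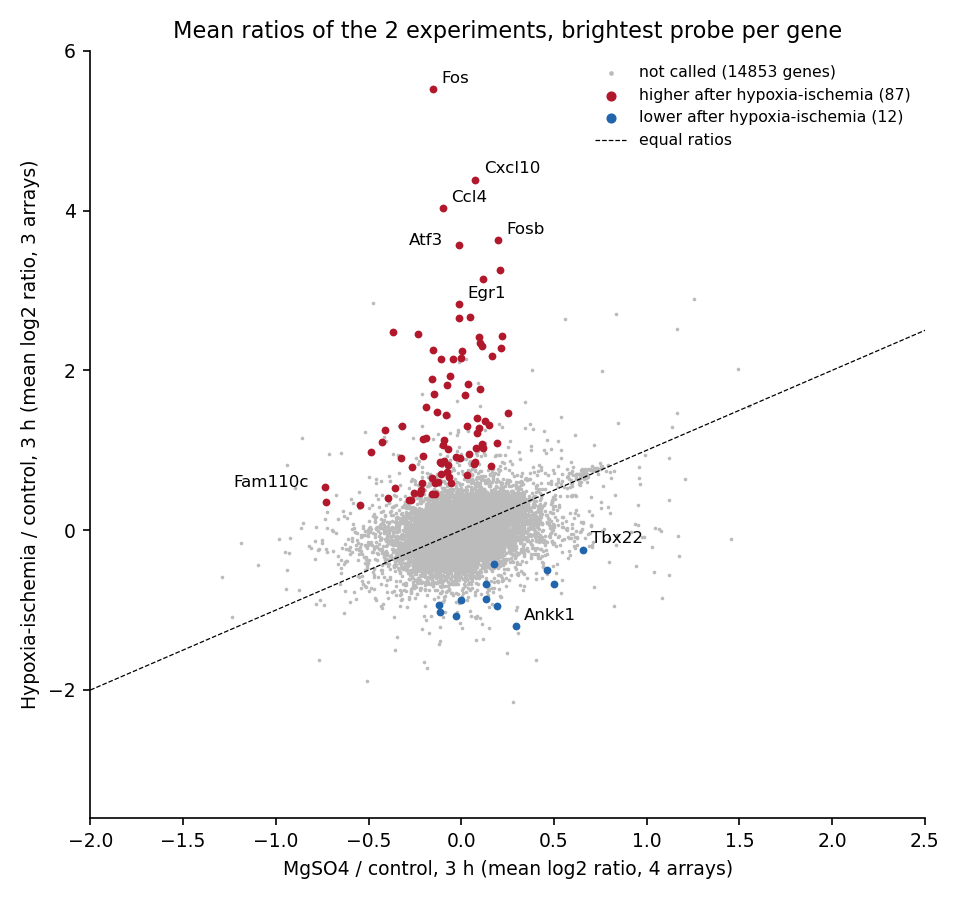
Mean log2 ratio of HI to control (vertical axis, 3 arrays) against that of MgSO4 to control (horizontal axis, 4 arrays), with 1 point for each of the 14952 genes and the line of equal ratios. The 87 genes called higher after HI form a column above 0 on the horizontal axis, up to Fos at 5.52, and the 12 called lower lie below 0 on the vertical axis.

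The largest difference belonged to an immediate early transcription factor. Fos, the partner of Jun in the AP-1 transcription factor, had ratios of 5.57, 5.86 and 5.12 on the HI arrays and of -0.33, -0.15, 0.18 and -0.30 on the MgSO4 arrays. Its difference of 5.67 ± 0.20 (SE; 50.9-fold, adjusted p = 6.75e-05, limma) was the largest of all genes tested, and it kept its call whichever of the 7 arrays was left out. Atf3, a stress-induced repressor of the same protein class, read 3.48, 3.69 and 3.53 after HI and 0.09, -0.65, 0.30 and 0.22 after MgSO4. The HI values of Atf3 lay close together, while MgSO4 replicate 2 was the lowest of its group. Fosb read 3.99, 3.79 and 3.10 against 0.30, 0.27, 0.03 and 0.20. Maff, a small partner of stress-response factors, read 3.45, 3.03 and 2.95 against 0.67, 0.20, -0.34 and -0.05. Both were thus far above every MgSO4 array. Egr1, a zinc finger factor induced by neuronal activity, read 2.74, 3.38 and 2.35 against -0.29, 0.04, 0.58 and -0.38. Its call was lost without HI replicate 1 (adjusted p = 0.0703, limma), and its spot was dim in both channels on MgSO4 replicate 3.

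Of the 25 immediate early transcription factors and related genes on the list, 23 were tested, and Egr3 and Nr4a3 did not pass the filter on dim spots. A total of 14 were called higher and 0 lower, where 0.582% of all genes were called higher. The median difference was 2.06, against -0.02 over all genes. Besides those above, Nr4a1, a nuclear receptor without a known natural ligand, had a difference of 2.62 ± 0.22 (SE), Egr2 of 2.32 ± 0.20, Jun of 2.24 ± 0.21 and Klf4, a zinc finger factor, of 2.21 ± 0.19, with adjusted p of 0.00418 to 0.00584 (limma). All of these 4 kept their call whichever array was left out. Ier2, Ier3, Arc and Jund also rose, by 2.06, 1.62, 1.74 and 0.97, and of these Jund lost its call in 3 of the 7 fits without 1 array. Arc, which marks recently active synapses, read 1.62, 1.81 and 1.21 after HI and -0.23, -0.27, 0.03 and -0.30 after MgSO4. Junb rose as well, but its control signal was well above background on 0 of the 3 HI arrays, so that its HI ratio is given as at least 2.14-fold above control.

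The members of this list that were not called were not all small. Npas4, a neuron-specific factor induced by calcium entry, read 1.69, 3.44 and 1.28 on the HI arrays and 0.22, -0.32, 0.27 and -0.06 on the MgSO4 arrays (difference 2.11, adjusted p = 0.111, limma). HI replicate 2 was far above the other HI arrays, and no HI array overlapped with MgSO4. Fosl1, Egr4 and Btg2 had differences of 1.28, 1.29 and 1.19 and adjusted p of 0.107 to 0.166. Myc was the 1 member with a negative difference, of -1.02 (adjusted p = 0.696), which rested on MgSO4 replicate 3 at 4.53, where the other MgSO4 arrays read -0.20, 0.04 and -0.19.

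**Figure D2:**
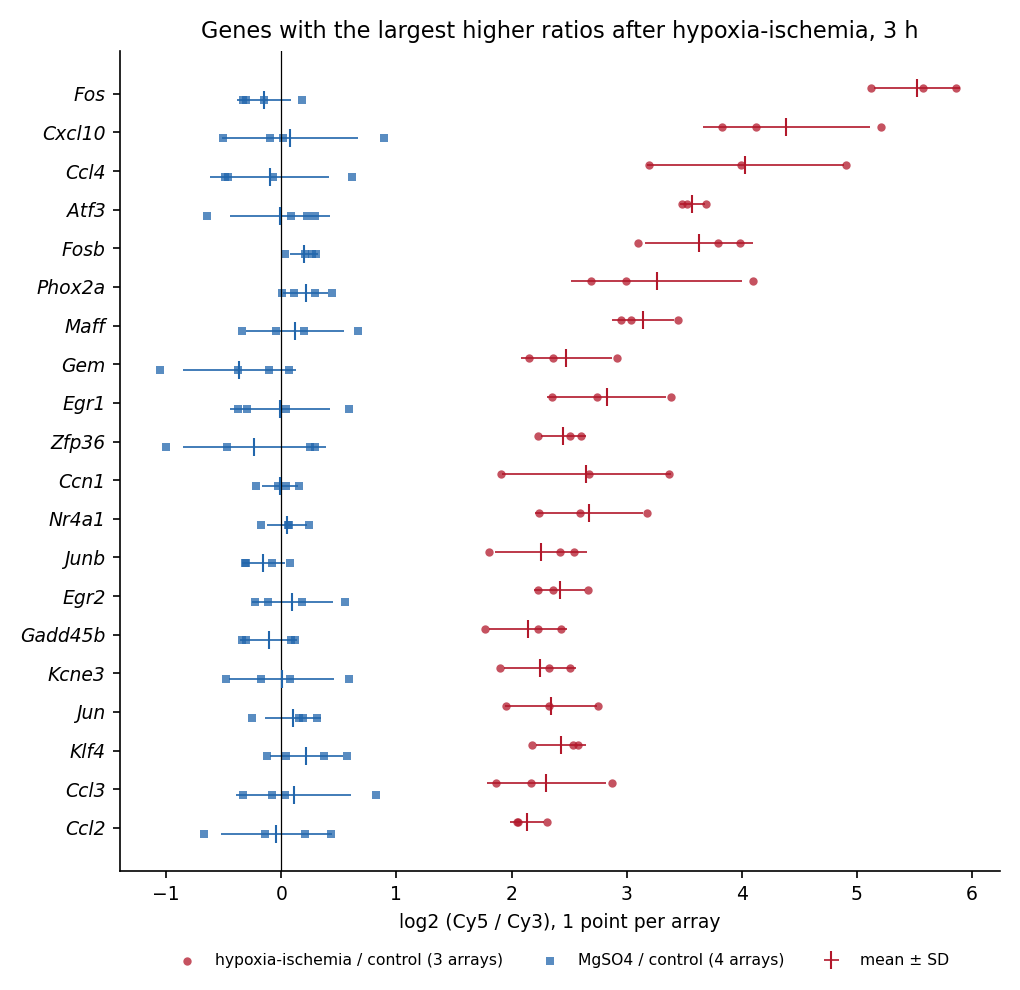
Log2 ratio of Cy5 to Cy3 on each array for the 20 genes with the largest higher difference, with circles for the 3 HI arrays, squares for the 4 MgSO4 arrays, and lines for mean ± SD. The HI points of all 20 genes lie at 1.77 or above, and the MgSO4 points at 0.89 or below. The MgSO4 spots of Phox2a and Zfp36 were dim in both channels on all 4 arrays.

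The promoters of Fos, Atf3, Nr4a1 and Cxcl10 are shown as examples of a Fos family gene, a stress-induced repressor, a nuclear receptor and a chemokine, whose calls no single array decided and which have 1 entry each in RefSeq. Each run holds the 250 bases before the start of that entry in build GRCm38.p6, 5′ to 3′ on the strand of the gene. For Fos, Atf3 and Cxcl10 this is the start of the annotated gene, whereas the entry of Nr4a1 starts inside the annotated span of the gene, chr15:101253902-101274795. Capitals in the first 3 mark TGACG, the core of the cAMP response element (CRE), on either strand, and TATAAA. In Cxcl10 they mark the AP-1 motif TGANTCA, the interferon-stimulated response element and the NF-kB site.
Fos, chr12:85473640-85473889, plus strand: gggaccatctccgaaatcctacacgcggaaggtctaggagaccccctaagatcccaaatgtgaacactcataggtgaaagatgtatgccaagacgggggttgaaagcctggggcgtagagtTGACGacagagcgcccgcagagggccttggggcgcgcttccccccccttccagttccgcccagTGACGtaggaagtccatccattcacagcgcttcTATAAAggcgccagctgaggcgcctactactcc
Atf3, chr1:191183334-191183583, minus strand: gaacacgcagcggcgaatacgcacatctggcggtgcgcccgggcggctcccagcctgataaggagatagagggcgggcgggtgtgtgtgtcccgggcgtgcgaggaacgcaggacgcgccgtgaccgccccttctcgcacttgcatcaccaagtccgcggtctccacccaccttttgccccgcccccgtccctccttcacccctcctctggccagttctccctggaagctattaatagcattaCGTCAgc
Nr4a1, chr15:101266596-101266845, plus strand: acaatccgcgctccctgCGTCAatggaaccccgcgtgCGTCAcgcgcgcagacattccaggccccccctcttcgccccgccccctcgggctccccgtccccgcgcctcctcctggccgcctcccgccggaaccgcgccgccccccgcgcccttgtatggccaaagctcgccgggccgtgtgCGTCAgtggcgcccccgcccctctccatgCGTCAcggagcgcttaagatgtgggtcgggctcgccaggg
Cxcl10, chr5:92348890-92349139, minus strand: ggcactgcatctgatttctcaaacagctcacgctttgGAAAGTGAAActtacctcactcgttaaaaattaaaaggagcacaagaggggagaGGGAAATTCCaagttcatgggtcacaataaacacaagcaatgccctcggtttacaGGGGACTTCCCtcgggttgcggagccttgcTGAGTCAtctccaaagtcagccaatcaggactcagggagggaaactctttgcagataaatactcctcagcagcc

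In these runs TGACG or its complement occurs 2 times in Fos, 1 time in Atf3 and 4 times in Nr4a1. Fos also holds 1 match to the NF-kB site, which is not in capitals. Cxcl10 holds 1 AP-1 motif, 1 interferon-stimulated response element and 3 matches to the NF-kB site, of which 2 overlap. Over promoters of 300 bases, which include 50 bases after the start, TGACG was found in 28 of the 64 genes called higher that have an entry (43.8%), in 12 of 18 immediate early genes (66.7%) and in 32.6% of all genes tested with an entry. The full CRE, TGACGTCA, which contains TGACG, was in 4 of the 64 (6.25%) and in 3.28% of all genes tested. TGACG was in 20.8% of all 32851 promoters of the table, TGACGTCA in 1.79%, TATAAA in 13.6%, TGANTCA in 7.81%, the interferon-stimulated response element in 3.44% and the NF-kB site in 8.46%. The NF-kB site was in 10 of the 64 genes (15.6%), in 9 of 18 immediate early genes (50%) and in 12.2% of the genes tested. TGANTCA was in 8 of the 64 (12.5%), in 0 of 18 immediate early genes and in 6.65% of the genes tested. The hypoxia response element ACGTG was in 34.4% of the genes called higher, in 27.4% of the genes tested and in 19.6% of all promoters. GAANNTTC, of the heat shock element, was in 4.69%, 7.19% and 7.86%, and the CArG box, the site of serum response factor, in 4.69%, 1.65% and 1.63%. Matches are a description of the letters and not of bound sites, and a gene counts when any of its entries holds the motif.

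Genes that end signals of MAP kinases and growth factors rose in part. Of 13 tested, 4 were called higher, against 0.582% of all genes, with a median difference of 0.81. Dusp1, a phosphatase of MAP kinases, read 1.61, 2.49 and 1.38 on the HI arrays and 0.11, 0.23, -0.11 and -0.09 on the MgSO4 arrays (difference 1.79 ± 0.25, SE, adjusted p = 0.0315, limma). HI replicate 2 was the highest, and the call of Dusp1 was lost in the fits without each of the other 6 arrays, with adjusted p up to 0.130. Dusp4 and Dusp14 rose by 1.18 and 0.94, with the call of Dusp4 kept in 2 of the 7 fits without 1 array and that of Dusp14 in 0. The spots of Dusp4 on MgSO4 replicates 3 and 4 were dim in both channels. Zfp36, a protein that speeds the decay of cytokine mRNAs, read 2.51, 2.61 and 2.23 against 0.25, -1.003, 0.29 and -0.47. Its spots were dim in both channels on all 4 MgSO4 arrays and on HI replicate 3, so that its MgSO4 values give no measured ratio. Its control signal was not well above background on any HI array, which leaves an HI level at least 1.91-fold above control, and its call was lost without each HI array and without MgSO4 replicate 4 (adjusted p up to 0.102). Errfi1, an inhibitor of the EGF receptor, had a difference of 0.90 that did not pass (adjusted p = 0.270). It read 0.71, 0.51 and 0.50 after HI and had a lone -1.36 on MgSO4 replicate 3, where its spot was dim in both channels.

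Chemokines formed the other group of large differences. Cxcl10, which attracts T cells, read 5.21, 3.83 and 4.12 on the HI arrays and 0.01, -0.50, 0.89 and -0.10 on the MgSO4 arrays. Its difference was 4.31 ± 0.40 (SE, adjusted p = 0.00584, limma). The Cxcl10 signal of the controls was well above background on 1 of the 3 HI arrays and on 2 of the 4 MgSO4 arrays, so that no exact fold is given. Ccl4, a chemokine of activated microglia and macrophages, read 4.91, 3.99 and 3.20 against -0.07, -0.47, 0.62 and -0.49. Both genes kept their call without each array, and in both the highest MgSO4 value was that of replicate 3, where the spots were dim in both channels. Ccl3 and Ccl2, which attract monocytes, rose by 2.19 ± 0.32 and 2.18 ± 0.25 (SE). The call of Ccl3 was lost without each array but MgSO4 replicate 3 (adjusted p up to 0.147), and that of Ccl2 without each HI array and without MgSO4 replicate 4 (up to 0.0980).

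Of 25 chemokines, cytokines and their regulators, 17 were tested, 5 were called higher and 0 lower, against 0.582% and 0.0803% of all genes, and the median difference was 1.64. Those listed but not past the filter on dim spots were Cxcl2, Il1a, Tnf, Lif, Osm, Ptgs2, Icam1 and Nfkbiz. Socs3, which inhibits cytokine receptors, was the most even of the 5, at 1.81, 1.78 and 1.52 after HI and 0.03, -0.19, -0.20 and -0.22 after MgSO4 (difference 1.85 ± 0.12, SE, adjusted p = 0.00146, limma). Cxcl1, a neutrophil chemokine, missed the threshold (2.08, adjusted p = 0.0579), with 2.92, 2.91 and 2.10 after HI and 1.37, -0.15, 0.49 and 0.54 after MgSO4. The interleukins Il6 and Il1b varied widely among the HI arrays. Il6 read 1.86, 0.02 and 3.64 after HI and Il1b 1.94, 0.42 and 1.33, with differences of 1.75 and 1.75 and adjusted p of 0.322 and 0.147. None of the 11 genes tested of the interferon-induced list was called (0 higher, 0 lower, median difference -0.10). Among them were Irf1 at 1.13 (adjusted p = 0.109, limma) and Oasl2 at -0.74 (adjusted p = 0.213). Outside this list, the interferon-induced gene Gbp4 was called lower, at -0.91. Cxcl10, whose promoter run holds an interferon-stimulated response element, was counted with the chemokines.

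Targets of hypoxia-inducible factors were called higher in 2 of 20 genes, against 0.582% of all genes, with a median difference of 0.35. Adm, the vasodilator adrenomedullin, read 2.39, 2.42 and 1.74 on the HI arrays and 0.29, 0.71, -0.10 and -0.24 on the MgSO4 arrays (difference 2.01 ± 0.26, SE, adjusted p = 0.0257, limma). Vegfa, the main growth factor of blood vessels, read 1.19, 1.17 and 0.91 against 0.27, 0.33, 0.17 and -0.01 (0.90 ± 0.12, adjusted p = 0.0301), and a dimmer probe of Vegfa had a difference of 1.301 (adjusted p = 0.0613). The call of Adm was lost without each array but HI replicate 3 and MgSO4 replicate 2 (adjusted p up to 0.143), and that of Vegfa without each array but MgSO4 replicate 1 (up to 0.156). The other 18 members did not pass. Slc2a1, the glucose transporter of the blood-brain barrier, had a difference of 0.66 (adjusted p = 0.127) and a ratio above 0 on all 7 arrays, at 1.37, 0.97 and 1.04 after HI and 0.48, 0.71, 0.16 and 0.49 after MgSO4. Hk2, a hexokinase of glycolysis, had 0.76 (adjusted p = 0.291), and the glycolytic enzymes Ldha, Pgk1 and Aldoa had 0.10, 0.24 and 0.07.

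Other stress lists held single large members. Hspa1a, the inducible heat shock protein of the Hsp70 family, read 1.497, 1.92 and 2.25 after HI and -0.64, -0.03, 0.15 and -0.11 after MgSO4 (2.05 ± 0.23, SE, adjusted p = 0.0156, limma). It was the 1 gene called among 14 heat shock chaperones, against 0.582% of all genes called higher, and their median difference was 0.11. The call of Hspa1a was lost without HI replicates 2 and 3 and MgSO4 replicate 4 (adjusted p up to 0.0711, limma). Hspa1b is nearly the same in sequence, and the probe may read both. Bag3, a co-chaperone, had 0.85 (adjusted p = 0.0914). Of 14 p53 targets and apoptosis genes, 3 were called higher, Gadd45b at 2.25, Pmaip1 at 1.28 and Phlda1 at 0.80, and 0 lower, against 0.582% and 0.0803% of all genes. The calls of Pmaip1 and Phlda1 were kept in 1 of the 7 fits without 1 array. Gadd45b, a stress sensor also induced by neuronal activity, read 2.43, 2.23 and 1.77 against 0.09, -0.34, 0.12 and -0.31 and kept its call whichever array was left out. Cdkn1a, Mdm2, Bbc3 and Bax, the cell cycle inhibitor, the antagonist and the death effectors of the p53 pathway, had 0.46, 0.04, 0.05 and -0.05 and did not pass. Of 15 genes of the unfolded protein response and 12 of the Nrf2 and metal response, 0 were called in either direction, with medians of 0.07 and 0.18. Chac1 and Hmox1, a glutathione-degrading enzyme and the inducible heme oxygenase, came nearest, at 0.81 (adjusted p = 0.0753) and 0.66 (adjusted p = 0.0807).

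Growth factors and matrix genes were called higher in 3 of 17, against 0.582% of all genes, with a median difference of 0.37. Ccn1, a matrix protein induced by growth factors and stretch, read 1.91, 3.37 and 2.67 on the HI arrays and 0.15, -0.02, 0.04 and -0.22 on the MgSO4 arrays (2.66 ± 0.30, SE, adjusted p = 0.0156, limma). Its call was lost without HI replicate 3 and MgSO4 replicates 2 and 4 (adjusted p up to 0.0675). Plaur, the urokinase receptor, read 1.77, 1.88 and 1.66 against 0.15, 0.20, 0.19 and -0.15, a difference of 1.67 ± 0.12, and kept its call throughout. Adamts1, a protease of the matrix, rose by 1.67 and kept its call in 2 of the 7 fits without 1 array. Gdf15, a stress cytokine, varied from 1.06 to 3.11 among the HI arrays and did not pass (2.11, adjusted p = 0.0897). Sphk1, sphingosine kinase 1, pointed the other way, at -1.69, -1.69 and -1.24 after HI and 0.38, -0.88, 1.73 and -0.24 after MgSO4 (-1.79, adjusted p = 0.198). The spot of Sphk1 on MgSO4 replicate 3, at 1.73, was dim in both channels.

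Lcn2, an acute phase protein, was called higher on the list of glucocorticoid-induced genes (1 of 12, median 0.24). It was also called on that of reactive astrocyte genes (2 of 13 with Cxcl10, median 0.41), where 0.582% of all genes were called higher. It read 1.03, 0.87 and 0.66 after HI and 0.22, 0.08, 0.06 and -0.07 after MgSO4, and its call was kept only without MgSO4 replicate 1. Cebpd, a factor of the acute phase, had 1.27 with an adjusted p of 0.264. Its lowest MgSO4 value, -1.31, was on replicate 3, where its spot was dim in both channels. Gfap and Vim, the intermediate filaments of astrocytes, had 0.46 and 0.85 and did not pass (adjusted p = 0.316 and 0.225, limma).

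Genes of neurons stood close to the median of all genes. Of 44 synaptic genes 0 were called, where 0.662% of all genes were, with a median difference of 0.06 and a range from -0.36 to 0.47. Vamp2, a vesicle fusion protein, had 0.47, Gria2 and Gria4, subunits of AMPA receptors, -0.36 and -0.36, with adjusted p of 0.259, 0.153 and 0.198 (limma). The glutamate receptor subunits Grin1 and Grik2 had 0.41 and 0.43 by their brightest probe, and -0.36 and -1.13 by a dimmer one. Their direction therefore depended on the probe. Of 19 potassium channel genes and 14 genes of magnesium transport 0 were called, with medians of -0.01 and -0.03. Trpm6 and Trpm7, magnesium channels with a kinase domain, had -0.52 and -0.36 (adjusted p = 0.172 and 0.195) and Cnnm2, a magnesium transporter, -0.31. On the HI arrays Trpm7 read -0.18, -0.38 and -0.27 and on the MgSO4 arrays -0.09, 0.20, 0.09 and 0.13, so that the groups did not overlap. In 5 of the 14 magnesium genes the groups did not overlap and HI was lower, against 9.74% of all genes. In 0 of them HI was higher without overlap, against 8.59%. This count was not tested. Of 22 genes of cholesterol synthesis 0 were called, with a median of 0.16. Hsd17b7 had the lowest adjusted p among them, 0.0491, with a difference of 0.52, short of the fold asked for. Of 23 developmental transcription factors 1 was called higher, against 0.582% of all genes. This was Id1, an inhibitor of differentiation, at 1.06, while its relatives Id2 and Id3 had -0.13 and -0.24. Among the fits that left out 1 array, Id1 was called only without MgSO4 replicate 1.

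**Figure D3:**
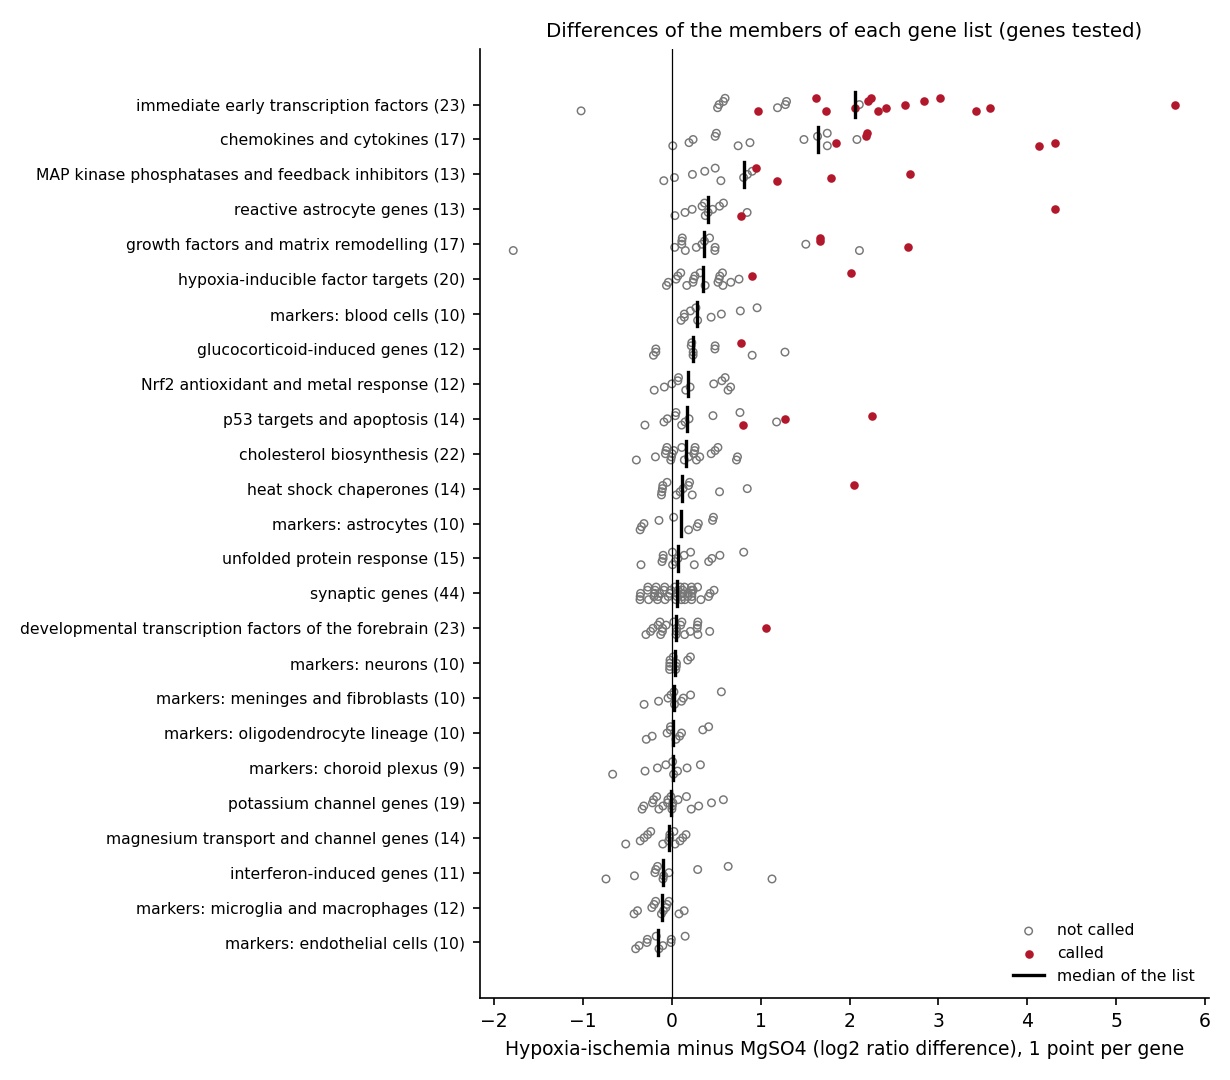
Difference between the HI and MgSO4 ratios (log2) for each member of the 25 gene lists, with 1 point per gene tested, filled where called, and a bar at the median of the list. The medians of immediate early genes (2.06) and of chemokines and cytokines (1.64) stand apart from the medians of the marker lists (-0.16 to 0.28).

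Markers of cell types were called in 0 genes of all 8 lists, where 0.662% of all genes tested were called. The tissue carried its defining markers, with all 10 neuronal markers past the filter. Median differences were -0.11 for microglia, 0.10 for astrocytes, 0.02 for the oligodendrocyte lineage, 0.03 for neurons, -0.16 for endothelial cells, 0.01 for choroid plexus and 0.03 for meninges. Blood cell markers had the largest median, 0.28, and all 10 tested were above 0. Their mean ratio was 0.09, 0.37 and 0.48 on the HI arrays, and 0.42, -0.21, -0.22 and -0.28 on the MgSO4 arrays, where replicate 1 lay among the HI values. S100a8 and S100a9, proteins of neutrophils, had the largest differences of that list, 0.96 and 0.77. The part of blood in the chemokine differences was not tested. Microglial genes of the resting state, P2ry12, Tmem119 and Cx3cr1, had -0.23, -0.43 and -0.39 (adjusted p = 0.381, 0.220 and 0.191, limma). In pooled tissue, fewer cells of a type and less RNA per cell cannot be told apart.

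Beyond the lists, 53 of the 87 genes called higher were on none of them. Among the 20 with the largest difference, these were Phox2a, Gem and Kcne3. Gem, a small GTPase that inhibits calcium channels, read 2.92, 2.36 and 2.15 on the HI arrays and 0.06, -0.10, -0.37 and -1.05 on the MgSO4 arrays (2.84 ± 0.29, SE, adjusted p = 0.00931, limma). A dimmer probe of Gem had a difference of 1.56 and was not called (adjusted p = 0.133). Kcne3, a subunit of potassium channels, had 2.24 by its brightest probe and 1.81 by another, both called, and lost the call without HI replicates 1 and 2 and MgSO4 replicates 2 and 4 (adjusted p up to 0.0980). Phox2a, a transcription factor of noradrenergic neurons, read 4.09, 2.69 and 3.00 against 0.11, 0.01, 0.29 and 0.44. Its signal was above background only in the HI pools, in 3 of 3, which leaves an HI level at least 3.32-fold above control. The spots of Phox2a were dim in both channels on all 4 MgSO4 arrays, so that its MgSO4 values give no measured ratio. Its call held in all 7 fits without 1 array, but these used the same dim spots. Other genes, named after their values were seen, were the TWEAK receptor Tnfrsf12a (2.15), the endothelial gene Esm1 (1.99), the clock repressor Nr1d1 (1.32), and the transcription factors Cebpb (1.17), Klf2 (1.16) and Srf (0.64). Without 1 array, these 6 kept the call in at most 4 of the 7 fits. Csrnp1, Slc16a6, Ppp1r15a and Bhlhe40 were among the 23 genes whose call no single array decided.

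The 12 genes lower after HI had smaller differences, from -1.50 to -0.60, and none of them kept its call without each of the 7 arrays. Ankk1, a kinase gene next to the dopamine receptor Drd2, read -1.32, -1.09 and -1.20 after HI and 0.24, 0.59, 0.40 and -0.06 after MgSO4 (adjusted p = 0.0111, limma). It was well above background in neither channel of any HI array, so that no fold is given. Snora74a, a small nucleolar RNA, read -0.64, -0.61 and -0.77 against 0.71, 0.44, 0.68 and 0.16. Its MgSO4 ratio was above 0 on all 4 arrays. Slitrk6, a synaptic adhesion protein, read -0.71, -1.07 and -0.83 against 0.20, 0.13, -0.18 and 0.37 (-0.998 ± 0.15, SE). Syndig1, which promotes excitatory synapses, and Cdh11, a cadherin, had differences of -0.87 and -0.60, with HI means of -0.87 and -0.42. A dimmer probe of each was not called, at -0.30 (adjusted p = 0.276) and -0.15 (adjusted p = 0.716). The zinc finger genes Zfp455 and Zfp708 fell by 1.05 and 0.80, but a dimmer probe of Zfp708 read 0.05. Gbp4, an interferon-induced GTPase, fell by 0.91 and Kbtbd8, an adaptor of a ubiquitin ligase, by 0.82. Ccdc146 was called but was dim in both channels on all 4 MgSO4 arrays and was well above background in the HI pools on 0 of 3 arrays, so that no fold is given. AW495222 had a difference of -0.96, from means of -0.49 after HI and 0.46 after MgSO4. Its HI pools were well above background on 1 of 3 arrays, and its spots were dim on MgSO4 replicates 1 and 3. The calls of Zfp455, Syndig1 and Kbtbd8 were lost in all 7 fits, and the other 9 were called in 1 to 5 of them, with adjusted p up to 0.198.

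**Figure D4:**
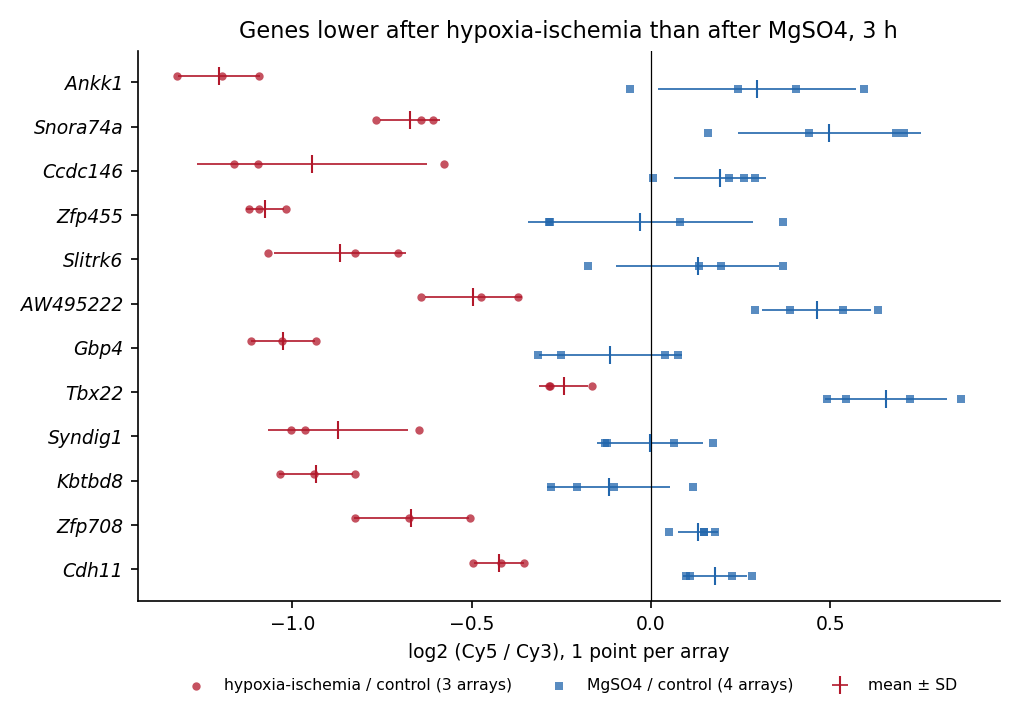
Log2 ratio of Cy5 to Cy3 on each array for the 12 genes called lower after HI than after MgSO4, with circles for the 3 HI arrays, squares for the 4 MgSO4 arrays, and lines for mean ± SD. All HI points lie below 0, and in Tbx22, Snora74a, Zfp708 and Cdh11 all MgSO4 points lie above 0. Some spots were dim in both channels, so that their sign is not a measured one. These were Ankk1 on all 3 HI arrays and Ccdc146 on HI replicate 1 and all 4 MgSO4 arrays. The others were AW495222 on MgSO4 replicates 1 and 3 and Gbp4 on MgSO4 replicate 3.

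In 64 of the 99 called genes the HI and MgSO4 means had opposite signs. The 99 were chosen by the difference of these means, a choice that favours opposite signs, and the share over all genes was not counted. The MgSO4 ratio differed from 0 in 0 probes (lowest adjusted p = 0.225, limma). Those with the largest MgSO4 mean were Fam110c, Fabp4, Tbx22, U90926 and Snora74a. Tbx22, a T-box factor, read -0.29, -0.16 and -0.28 after HI and 0.49, 0.72, 0.55 and 0.86 after MgSO4, a difference of -0.90 ± 0.12 (SE, adjusted p = 0.0257, limma). The call rested on the MgSO4 ratios at 3 h, since with the 4 MgSO4 arrays of 12 h in their place the difference was 0.16. Fabp4, a fatty acid carrier, read 0.60, 0.49 and -0.02 against -0.71, -0.51, -0.90 and -0.80 with dim spots on all MgSO4 arrays. Fam110c and U90926 were well above background on no HI array, and no fold is given for them. The HI sign of these genes and the MgSO4 sign of Fabp4 are therefore not measured ones. With 1 array left out, these 5 genes kept their call in at most 2 of the 7 fits.

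Taken alone, the MgSO4 ratios differed from 0 in 0 probes by limma (lowest adjusted p = 0.225), with 1732 probes at an unadjusted p under 0.05 and 130 by the methods' t-test at an unadjusted p under 0.05 and the same fold. The HI ratios differed from 0 in 694 probes (3.56%) and 541 genes (3.62%), 343 higher (2.29%) and 198 lower (1.32%). Without HI replicates 1, 2 and 3 there were 0, 76 and 62 probes. Of these, 83 were also called between HI and MgSO4 and 458 were not. Among the 458, the 269 above control had a median of 0.74 after HI and 0.21 after MgSO4, and the 189 below control had -0.70 and -0.11. Their direct difference had an unadjusted p under 0.05 in 287. The 458 are therefore not shown to be equal in both experiments. The MgSO4 arrays also spread more in these genes, with a median SD of 0.28 against 0.19 for HI. Control was in Cy3 on every array, so that a dye effect of a probe stays in all ratios against 0. Its part in the 541 genes was not tested.

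The 5 genes of the 458 with the HI ratio farthest from 0 in either direction were Vmn1r236, Gm20877, Cxcl1, Olfr160 and Lypd10. Vmn1r236, a vomeronasal receptor gene, read 2.93, 2.88 and 2.86 on the HI arrays, and 2.32, 1.24, 0.15 and 1.31 on the MgSO4 arrays. Olfr160, an odorant receptor gene, read 1.68, 2.40 and 3.48 against 1.24, 1.82, 0.90 and 0.68. In both the control signal was well above background on no HI array, which leaves HI levels at least 1.67-fold and at least 1.51-fold above control. These bounds still hold any dye effect of the probes. At 12 h, Vmn1r236 and Olfr160 had means of 2.19 and 2.19 after HI and of 3.00 and 2.17 after MgSO4. Whether a dye effect is part of these ratios was not tested. Olfr160 was dim in both channels on HI replicate 1 and on all 4 MgSO4 arrays, and Vmn1r236 on MgSO4 replicates 3 and 4, so that these spots give no direction. Gm20877 read 2.01, 2.38 and 3.74, but another probe of the gene had a mean of -0.46 after HI. Lypd10 lay below control, at -2.53, -2.89 and -1.02 after HI, with dim HI pools on 3 of 3 arrays and spots dim in both channels on all 4 MgSO4 arrays.

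At 12 h, on 3 other HI arrays and 4 other MgSO4 arrays, the same difference had the same sign in 80 of the 99 genes, 70 of the 87 higher and 10 of the 12 lower. The share of all genes that kept their sign was not counted. The HI arrays of both times were scanned on the same day, and HI replicate 3 of 3 h shared a slide with HI replicate 1 of 12 h. The MgSO4 arrays of 12 h lay on other slides and days. Slide or scan day and group therefore cannot be told apart at 12 h either. The median of the 87 was 0.37 at 12 h, where it was 1.23 at 3 h. The 87 were chosen by their difference at 3 h, a choice that by itself favours smaller values on other arrays. In all, 6 genes (0.0401%) were called at 12 h, and 4 of them were among the 99: Cxcl10, Ccl4, Ccl3 and Cd14, a coreceptor of bacterial lipopolysaccharide, at 5.80, 4.35, 2.71 and 2.47. Lilrb4a, an inhibitory receptor of myeloid cells, and Ccl2 had 4.29 and 3.38 and were not called at 12 h (adjusted p = 0.145 and 0.0643, limma). At 3 h the call of Cd14 was kept in 0 of the 7 fits without 1 array, and that of Lilrb4a in 1. In 8 of the 87 genes the difference was larger at 12 h than at 3 h. Fos had 2.39 and Atf3 2.01 at 12 h, whereas Egr1, Dusp1, Nr4a1 and Fosb had -0.02, -0.00, 0.10 and 0.43, and Egr2 and Arc -0.49 and -0.41. By list, the median of immediate early genes was 0.18 at 12 h, that of chemokines and cytokines 1.69, that of interferon-induced genes 1.25, and that of reactive astrocyte genes 1.13. The change from 3 h to 12 h was not tested.

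**Figure D5:**
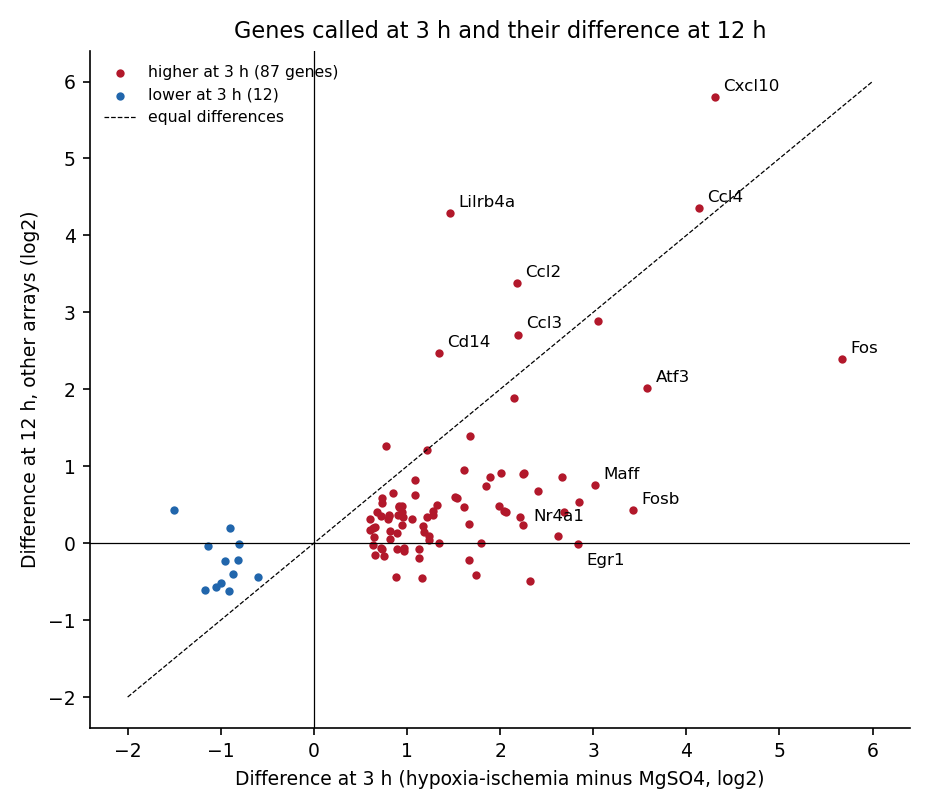
Difference between HI and MgSO4 ratios (log2) at 12 h (vertical axis, other arrays) against that at 3 h (horizontal axis) for the 99 genes called at 3 h, with the line of equal differences. Cxcl10, Ccl4, Ccl3, Ccl2, Lilrb4a and Cd14 lie above the line, and Fos, Fosb, Egr1 and Nr4a1 below it.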

How the data were processed

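The authors read 2-colour Agilent whole mouse genome arrays with Feature Extraction 10.5.1.1. Background subtraction, spatial detrending and a linear and lowess dye normalization had been applied to the processed intensities they deposited. The deposited files hold median intensities of spots and local background as well. The authors' deposited table of the whole series holds log10 ratios of Cy5 to Cy3, with undetected features set to 0, and was turned to log2 as an alternative. No spot was saturated (0), and 53.5% to 67.0% of the spots were well above background in Cy5. Signal over background and the number of arrays limit the precision, and p-values measure the spread between pools. Log2 ratios were computed from processed intensities, outlier spots were left out and replicate spots averaged. By accession, 27427 of 39429 probes (69.6%) had a single RefSeq symbol. Symbols with Rik were left out. A probe was tested when Cy5 or Cy3 was well above background on 66.7% or more of the arrays of either group. Differences and ratios against 0 were tested with limma 3.58.1 in R 4.3.3 (package data.table, version 1.17.8), with Benjamini-Hochberg adjustment over 19478 probes. Genes were called at an adjusted p under 0.05 and a fold of 1.5 or more (log2 0.585). The scripts were tested on simulated data. A bound ("at least") sets the dim channel of each array at the lowest signal well above background or at its own, whichever was higher. Reading and figures used Python 3.11.15, pandas 2.3.3 and matplotlib 3.10.9. Genes named were the 20 largest higher and 12 largest lower differences without overlap, the 3 largest members of each list, the 5 largest HI ratios not called between groups, and the 5 largest MgSO4 means of opposite sign, with others as list members. The members and lists were chosen with earlier results of these data known. Arrays of the series with MgSO4 before HI were not used here.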

Additional observations from a re-analysis of the deposited data

Results flagged for a closer look

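Among the 4 MgSO4 arrays, the ratios of 80 named genes and the medians of 25 lists were examined for a single array far from the others, by Dixon's ratio of its gap to the nearest array over the range of the group. Chance flags about 1 in 20 such groups, and 5 stood out. MgSO4 replicate 3 stood apart in Errfi1, at -1.364 (gap over range 0.835), and in Vim, at -1.267 (0.884), and both spots were well above background in neither channel there. MgSO4 replicate 1 stood apart in the median ratio of synaptic genes, at -0.3342 (0.858), of developmental transcription factors, at -0.2267 (0.844), and of neuronal markers, at -0.296 (0.852). The 3 lists share neuronal genes, and this array also had the lowest correlations with the other MgSO4 arrays. Groups of 3 arrays were not examined.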

How the results depend on the processing

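The direction of all 99 called genes held in each alternative fit that gave a value, except that with the MgSO4 arrays of 12 h as reference, an alternative chosen after seeing the data, 97 of 99 kept it. The groups did not overlap in any of the 99. Fits that left out an array or changed only the test, spread, weights or block therefore could not turn a direction. Only fits with other signals or other MgSO4 arrays could. The size of some differences moved much more. Over the alternatives the smallest was 0.20 for Junb, 0.64 for Phox2a and 0.32 for Zfp36, against 2.41, 3.05 and 2.68 in the main fit. For Ankk1 and Ccdc146 it was -0.17 and -0.08, against -1.50 and -1.14, whereas Fos stayed at 4.43 or more. The counts moved as well. Against 107 probes higher and 16 lower, there were 39 and 5 without a filter on dim probes, 4 and 0 by the methods' t-test with adjustment and 357 and 224 without it, 63 and 1 with the spread shared over 25 arrays, 227 and 144 with array weights, 15 and 1 with the replicate number as a block, and 21 and 1 with the MgSO4 arrays of 12 h as reference. With probes well above background in both channels on all 7 arrays 29 were lower, with all 19 MgSO4 arrays as reference 48, and with slide as a random block 37. By the methods' t-test 3037 probes had an unadjusted p under 0.05. Leaving out spots dim in both channels, also chosen after seeing the data, gave 119 and 15, with a value for 92 of the 99 genes. Leaving out 1 array gave 29 to 98 higher and 0 to 30 lower. The share of higher calls was 87% and fell to 76.6% without MgSO4 replicate 1, 72.6% with 19 MgSO4 arrays and 61.2% with array weights. Of the 99 genes, 65 were called with normexp and 15 with the block. Residuals of same-numbered arrays correlated at 0.14, 0.06 and 0.02, and those of unlike numbers at -0.09 to 0.04. Whether the replicate numbers pair the arrays was not tested.

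Against 694 probes with an HI ratio, there were 268 with normexp, 316 without background subtraction, 33 without a filter, 450 with the strict filter, 0 by the adjusted t-test (593 unadjusted), 367 with the shared spread, and 0 to 76 with 1 array left out, the 0 without HI replicate 1. For MgSO4 there were 40 with normexp, 31 without background subtraction, 130 by the unadjusted t-test and 70 with the shared spread, and 0 with any 1 array left out. Turned directions were those of Tbx22 (0.16), Neurog2 (-0.32), Kcnq3 (-0.16) and Vmn1r236 (-0.11) with MgSO4 at 12 h, and of Grik2 (-1.13) with the probe of largest difference. The cause of these changes was not tested.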

Other observations

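Cholesterol synthesis genes, which were near 0 at 3 h with a median difference of 0.16, had a median of -0.55 at 12 h, where 1 of 22 was above 0. Blood cell markers had medians of 0.28 and 0.79 at the same times. Neither change between times was tested.

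Fas, a death receptor, read 2.06, 0.51 and 1.29 on the HI arrays and 0.29, 0.33, 1.09 and 2.84 on the MgSO4 arrays. The value on MgSO4 replicate 4 was above all HI arrays, and the difference was 0.15 (adjusted p = 0.936, limma). Spry4, an inhibitor of receptor tyrosine kinase signals, read 0.23, 0.13 and 0.15 after HI and -0.89, -0.42, -1.39 and 0.16 after MgSO4. Choroid plexus markers had a mean ratio of 0.44 on MgSO4 replicate 1 and of -0.91 on MgSO4 replicate 4, with -0.37 to -0.02 on the HI arrays. These genes and lists were chosen after their values were seen.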
